A study of Mus musculus with 8 samples.

Results

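Isolated CpGs outside genes are cytosines in CG dinucleotides that stand alone in gene-poor DNA. Here a CpG was a member when it lay on an autosome, had 5 or more reads in all 4 files, had no other CpG listed in any file within 200 bp, and lay over 50 kb but not over 500 kb from the nearest protein-coding gene of the GENCODE M21 annotation (GRCm38). In all, 289766 CpGs were members, of 18216084 autosomal CpGs at this depth (1.59%). The comparison group was the 3464024 other intergenic CpGs, which lay in the same 50 to 500 kb band but had another listed CpG within 200 bp. The members made up 7.72% of this intergenic band.

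The methylation calls came from whole-genome bisulfite sequencing (WGBS) of lymphocytes sorted from the spleen of C57BL/6J mice aged 6 to 8 weeks, an inbred wild-type strain with no treatment. Where 4 values stand in a row, they are for B and T cells of females and then for B and T cells of males. The 8 samples formed 4 groups of 2: CD43- B cells from females, CD4+CD62L+ T cells from females, and the same cells from males. CD43- marks resting B cells, and CD4+CD62L+ marks naive helper T cells. Cells of several animals were pooled for a sample, so differences between individual mice cannot be seen. Each group had 1 file, and it was not stated if that file combines both samples or comes from a single one, so each group counted as 1 measurement. Bisulfite reads do not separate 5-methylcytosine from 5-hydroxymethylcytosine, and both count as methylated below.

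The labels were checked at promoters (1000 bases on each side of the start). The promoters of Cd79a and Ms4a1, which encode B cell surface proteins, had levels of 10.5% to 17.02% in both B files and 79.3% to 93.6% in both T files. Other B cell promoters were less distinct, with Cd79b at 8.19% and 9.91% in B and 35.9% and 45.8% in T, and Fcer2a at 44.1% and 41.2% in B and 88.1% and 81.6% in T. Those of Cd3d, Cd3e and Cd3g, the invariant chains of the T cell receptor complex, lay at 1.87% to 8.33% in T and at 83.4% to 95.5% in B, while Cd4, Cd5 and Cd6 lay at 12.6% to 29.4% in T and at 64.6% to 73.3% in B. The B cell gene Cr2 was low in every file, from 8.35% to 14.4%. Cd8b1, a marker of CD8 T cells, lay at 40.6% and 38.5% in the T files and at 89.98% and 89.75% in the B files, and Cd8a at 67.03% and 70.9% in T. The myeloid genes Lyz2, Csf1r, Itgam and Cd68 and the NK cell genes Klrb1c and Ncr1 had levels between 41.5% and 93.0%, the lowest at Lyz2 in B. What share of other cells the sorted populations held was not tested.

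DNA methylation is copied at each cell division by DNMT1, which is brought to newly replicated CpGs by UHRF1. Copying works less completely where CpGs stand far apart, and solitary CpGs flanked by A or T on both sides, the WCGW context (W is A or T), are known to lose methylation in late-replicating, lamina-associated DNA of cells that have divided many times. Near genes, single CpGs in enhancers are also demethylated when lineage transcription factors open the surrounding chromatin. Neither process was measured here.

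The sequences below belong to CpGs with the largest differences between cell types in both sexes, printed because each is a lone CpG that was near 0% in one cell type and near 100% in the other. Sequences are 30 bases of GRCm38, forward strand, 5′ to 3′, with the CpG in capitals. The first 5 were methylated in B cells and not in T cells, and the last 6 the reverse.
Lmo4 side, chr3:143936588-143936617: aaatccactgtgctCGtcttgttcttgaaa
Tox side, chr4:7441157-7441186: gtaccaattggtggCGatcctatagaagtc
Sp4 side, chr12:118373083-118373112: aaaatggatgggtaCGgtggcacacacctt
4933412E24Rik side, chr15:60180052-60180081: atatccaacagtcaCGtgcagtttaaaaga
Dph5 side, chr3:115805770-115805799: gctatattggtttaCGtttcctgggctggc
Lpin1 side, chr12:16434829-16434858: acaccaaagccaacCGtcaaactgtccagg
Nfe2l3 side, chr6:51151335-51151364: gattaacaaaaagcCGgcacactcccaccc
Gadd45g side, chr13:51940978-51941007: aactaaccccacaaCGatcagctgtgaata
Myc side, chr15:61915738-61915767: ttactagcttctacCGgtgatgtgccctcc
Ebf1 side, chr11:45116724-45116753: tcattaaaatggttCGcattgctctcccaa
Mef2c side, chr13:83085022-83085051: gtttgaatatgtttCGtccagggagtggcc
Each name is the nearest protein-coding gene, which need not be the gene that a site acts on. The bases beside the CG place the Lmo4, 4933412E24Rik, Dph5, Gadd45g and Mef2c sites in the WCGW context. Their values are given with the single-CpG comparison.

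Isolated CpGs were highly methylated in every file. The methylation level (methylated reads over all reads, pooled over members) was 84.98%, 84.87%, 84.77% and 84.59%. The mean was 84.8% ± 0.165 (SD over 4 files), and the 95% Wilson interval of each level was at most 0.0368 points to either side. That interval covers counting error only, since reads of a PCR-amplified library without molecular identifiers are not independent molecules. Members were read less deeply than other intergenic CpGs, at 12.5, 14.1, 13.4 and 14.2 reads per CpG against 14.4, 17.1, 15.7 and 16.9.

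The class was less methylated than the other intergenic CpGs of the same files. Those lay at 86.1%, 85.7%, 85.7% and 85.6%, so that isolated minus other was -1.17, -0.824, -0.960 and -0.986 percentage points, a mean of -0.984 ± 0.141 (SD, 4 files). All 4 files went the same way, but an exact sign-flip permutation test over 4 files cannot go below p = 0.125. The size of this gap depends on a few very deep CpGs among the other intergenic ones. On chromosome 17, 583 of them with more than 50 reads, up to 3302, lay in chr17:39000001-40000000, in or beside the annotated RNA genes Gm26917, CT010467.1, Gm42418 and AY036118. They held 26.6% of all reads of other intergenic CpGs on that chromosome, at levels of 22.4% to 29.2%. Without CpGs over 50 reads the gap was -1.80 ± 0.0705 points, and when every CpG counted once it was -1.94. With 10 or more reads in every file it was -0.645.

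Members differed in level with the bases beside the CpG. Of the members, 39.5% were WCGW, 46.7% had C or G on one side only (SCGW, S is C or G) and 13.7% had C or G on both (SCGS). For other intergenic CpGs these shares were 30.3%, 48.5% and 21.2%. Isolated WCGW CpGs lay at 79.6%, 79.4%, 79.3% and 79.1%. Isolated SCGS CpGs lay at 91.4%, 91.1%, 91.08% and 91.02%, with SCGW between them at a mean of 87.3% ± 0.150. WCGW minus SCGS was -11.8 ± 0.106 points (SD, 4 files). Among other intergenic CpGs the same difference was -4.91 ± 0.148. Over the files the first ran from -11.95 to -11.70 and the second from -5.08 to -4.77, so they did not overlap. The size of this contrast depends on GC content, as given below, and on CpGs over 50 reads. Without such CpGs, WCGW and SCGS lay at 83.0% and 89.2% among other intergenic CpGs, and at 79.4% and 91.2% among isolated CpGs.

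**Figure D1:**
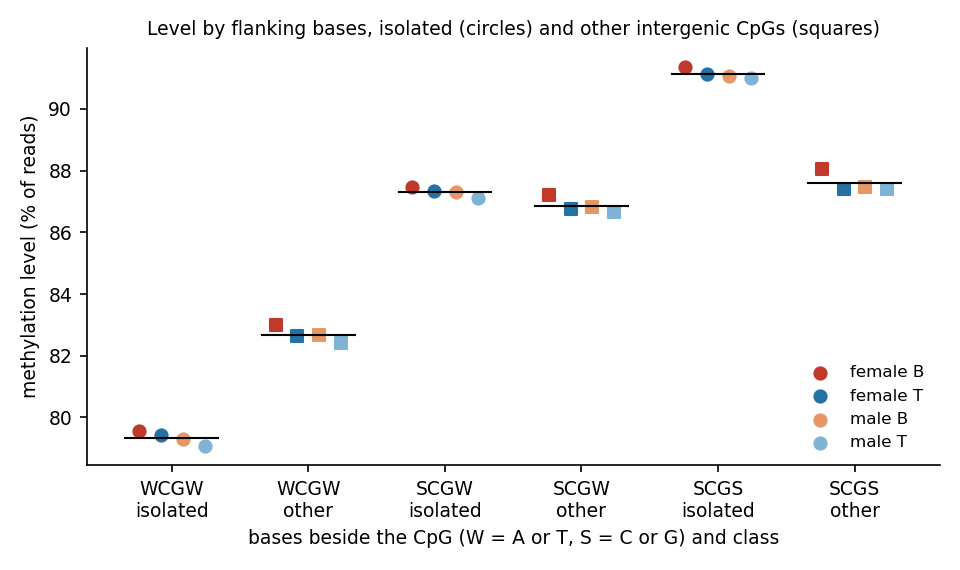
Methylation level (percent of reads) of isolated (circles) and other (squares) intergenic CpGs by flanking bases, 1 point per file and a line at the mean of 4 files; the axis does not start at 0. Isolated CpGs run from 79.3% in WCGW to 91.1% in SCGS, a wider range than the other CpGs (82.7% to 87.6%). Without CpGs over 50 reads, which are included here, the other CpGs run from 83.0% to 89.2%.

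The plot of level by flanking bases shows that the classes cross. In WCGW, isolated minus other was -3.42 to -3.22 points over the files. In SCGS they were higher by 3.30 to 3.71 points, a gap that was 1.96 points without CpGs over 50 reads. For SCGW the gap changed sign with that choice, from 0.44 to -0.38 points. Both SCGS values rest on GC-rich surroundings. When CpGs were split at the quartiles of GC content of the surrounding 402 bases (35.3%, 38.8% and 42.8%), isolated minus other in SCGS was -1.09, -1.09 and -0.938 points in the lower 3 quartiles and 3.89 points in the highest, or 1.85 without CpGs over 50 reads. In WCGW it was between -5.45 and -3.94 points in all 4 quartiles. In SCGW it was -2.26, -2.13 and -2.60 points in the lower 3 quartiles and 0.514 in the highest, or -0.711 without CpGs over 50 reads. Over all contexts the gap was -3.10, -3.62 and -3.37 points in the lower 3 quartiles and -0.307 in the highest. Without the split it was -0.984 points, or -1.80 without CpGs over 50 reads. The value of -0.307 includes such CpGs, and its counterpart over all contexts without them was not taken.

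Within isolated CpGs the flanking difference was present at every GC content and was smallest in the lowest quartile. WCGW minus SCGS was -11.5, -12.6, -12.5 and -12.9 points from the lowest to the highest GC quartile, with SDs over files of 0.128 to 0.173. Among other intergenic CpGs, WCGW and SCGS lay at 85.5% and 94.2% in the lowest quartile, 85.002% and 93.2% in the second, 83.9% and 92.5% in the third and 80.98% and 86.01% in the highest. Within quartiles the difference between contexts was thus nearer to that of isolated CpGs in the lower 3 than in the highest. Without CpGs over 50 reads, the levels in the highest were 81.6% and 88.1%. The quartiles were cut on members. The highest held 69181 isolated and 1991984 other CpGs, so GC content need not be alike within it. The 10 classes of 4-base contexts, each read together with its reverse complement, fell into 3 steps. The 3 WCGW classes lay at 79.0% (TCGA), 79.3% (ACGA) and 79.6% (ACGT), with SDs over files of 0.217 to 0.242. The 4 SCGW classes lay between 86.8% (ACGG) and 87.8% (ACGC). The 3 SCGS classes lay at 90.3% (CCGG), 91.6% (GCGC) and 91.6% (CCGC). Within the first step, ACGT lay above ACGA and ACGA above TCGA in each of the 4 files. These classes differed by amounts near 1 to 3 times the SD over files, a spread that does not use the pairing within files. The gap from the first step to the second was over 7 points in each file.

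Distance to the nearest other CpG was examined over the whole intergenic band. Under 10 bp from another CpG, WCGW CpGs had 86.1% ± 0.419 and SCGS CpGs 82.8% ± 0.736, so that the order of contexts was the reverse of that in the members. Levels by distance include CpGs over 50 reads and were not taken without them. Over all other intergenic CpGs, leaving these out moved SCGS from 87.6% to 89.2% and WCGW from 82.7% to 83.0%. Whether the reversal holds without them was not tested. From 10 bp upward WCGW CpGs were the lowest of the contexts, at 79.1% ± 0.169 between 50 and 100 bp and 80.9% ± 0.205 between 100 and 200 bp. Past the 200 bp line that defines the members, WCGW CpGs lay at 79.5% ± 0.198 to 300 bp, 79.4% ± 0.255 to 500 bp, 78.3% ± 0.241 to 1000 bp and 74.4% ± 0.107 beyond, the last over 389 CpGs. SCGS CpGs stayed between 90.8% and 91.2% over the same 4 ranges. Over all contexts, CpGs just outside the line (100 to 200 bp) had 85.8% ± 0.156 and those just inside it (200 to 300 bp) had 84.9% ± 0.150. CpGs at 50 to 100 bp had 84.2% ± 0.123, below both, so the level did not fall steadily with distance.

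**Figure D2:**
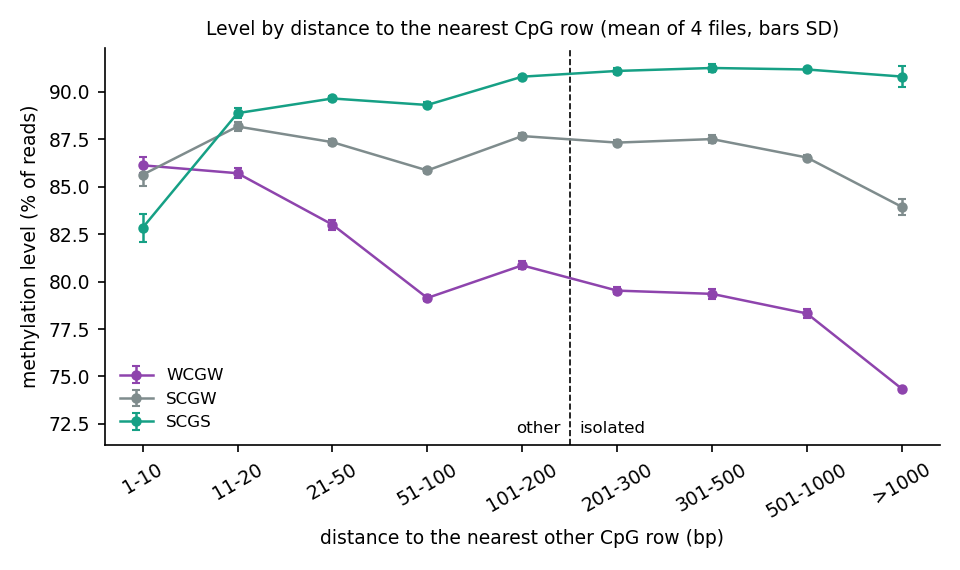
Methylation level (mean of 4 files, bars SD) against distance in bp to the nearest other CpG row, for 3 flanking contexts of CpGs over 50 kb and up to 500 kb from genes; the dashed line is the 200 bp limit, with members to its right. WCGW falls from 86.1% to 74.4% while SCGS rises from 82.8% to about 91%. CpGs over 50 reads are included, and the levels were not taken without them.

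Within the band of the rule, isolated CpGs were lower the farther they lay from genes. They had 85.4% ± 0.166 at 50 to 100 kb, 85.1% ± 0.153 at 100 to 200 kb, 84.5% ± 0.197 at 200 to 300 kb and 84.1% ± 0.170 at 300 to 500 kb. Isolated CpGs inside protein-coding genes, which are no members, had 87.3% ± 0.203, those up to 50 kb away had 85.2% ± 0.0974, slightly below the first range of the band, and those over 500 kb away had 83.2% ± 0.129. WCGW CpGs went from 83.2% inside genes to 77.3% beyond 500 kb, and SCGS CpGs from 91.7% to 90.5%, with 90.6% up to 50 kb and 91.3% at 50 to 100 kb between. Without CpGs over 50 reads, the gap to other intergenic CpGs went from -0.231 points at 50 to 100 kb to -3.41 points at 300 to 500 kb. Over that range other CpGs rose from 85.7% to 87.5%, a larger move than the fall of isolated CpGs from 85.4% to 84.1%.

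Intermediate levels were common at single members. A level averages over many cells, so partial methylation of every cell and full methylation of some cells cannot be told apart. Over the 136111 members that had at least 10 reads per file, 24.7% to 25.4% lay between 20% and 80% in a file, against 16.4% to 16.8% of other intergenic CpGs. The share was 37.4% to 38.8% of WCGW and 10.6% to 11.3% of SCGS members. In all 4 files at once it was 9.41% of members and 5.97% of other intergenic CpGs, and 16.5% of WCGW and 2.92% of SCGS members. At these depths read sampling alone can carry a CpG across the 80% limit, more often where its level is nearer to 80%. The part of read sampling in these shares was not tested. Fully or nearly unmethylated members were rare: 466 (0.342%) were at or below 20% in all 4 files, against 1.72% of other intergenic CpGs. The rule excludes protein-coding genes only, and 12.2% of members lay in some other annotated gene, mostly long noncoding RNA genes (11.1%), with 85.3% ± 0.151 there and 84.7% ± 0.170 outside. Members in soft-masked repeats (26.7%) had 84.2% ± 0.106, and the rest had 85.01% ± 0.200.

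Chromosomes differed more than files did. Chromosome 7 had the lowest level of isolated CpGs, at 82.76%, 82.96%, 82.63% and 82.66% (12316 members). Chromosome 6 came next at a mean of 84.1% ± 0.146. Chromosome 15 was the highest at 86.6%, 86.5%, 86.4% and 86.2%, followed by chromosome 13 at a mean of 85.8% ± 0.206. No file of chromosome 7 overlapped the range of chromosome 6, while chromosomes 6, 8 (84.1% ± 0.167) and 5 (84.2% ± 0.126) lay within each other's spread. Counting intervals reached at most 0.270 points to either side.

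On 18 of 19 chromosomes isolated CpGs lay below the other intergenic CpGs in all 4 files. The exception was chromosome 17, where they lay 11.6 to 14.8 points above them because of the deep CpGs described above, which are counted by their reads. With CpGs over 50 reads left out, all 19 chromosomes had isolated CpGs below in every file, with a mean gap of -2.38 points on chromosome 17. The plot of this gap by chromosome shows chromosome 7 lowest in both versions, at -2.75 points with all CpGs, and chromosome 13 nearest to 0, at -0.652.

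**Figure D3:**
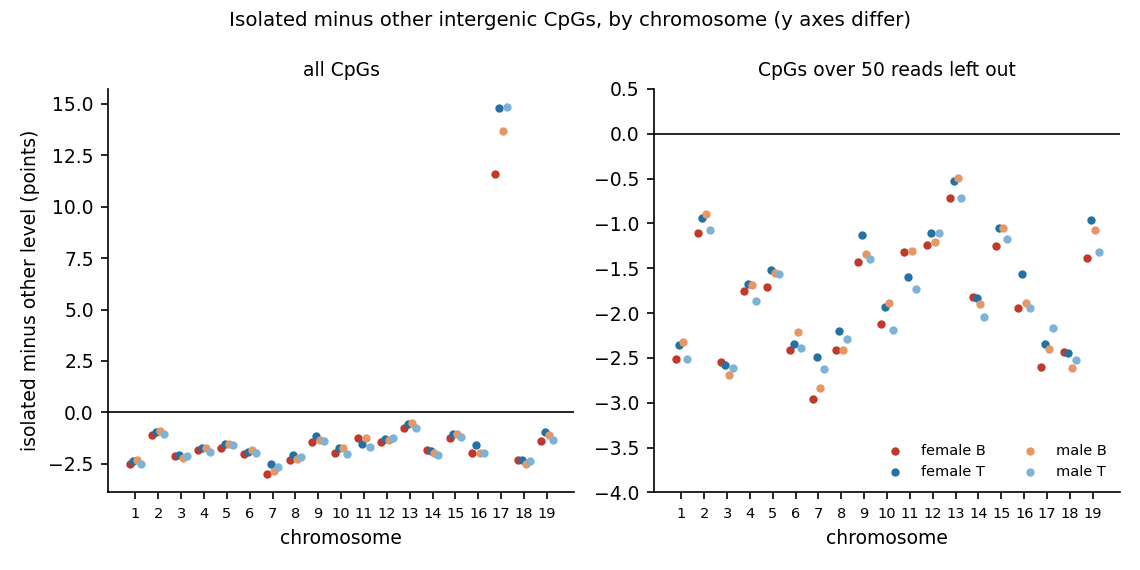
Level of isolated minus other intergenic CpGs in percentage points for each autosome, 1 point per file, with all CpGs (left) and without CpGs over 50 reads in any file (right, on a finer axis). Chromosome 17 stands 11.6 to 14.8 points above 0 on the left and joins the rest on the right.

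The level was also taken in 1 Mb bins with 50 or more members, 1395 in all, with a median of 186 members. Bin levels (mean of 4 files) averaged 85.01% with an SD of 3.48 points over bins, from 71.2% to 94.5%. The landscape was shared between files. Pearson's r over bins was 0.946 between female and male B cells and 0.947 between female and male T cells, against 0.909 to 0.914 between a B file and a T file. These are descriptions over bins that share libraries and base composition. Bin levels rose with CpG density (Spearman's rho 0.373) and GC content (0.279) of the bin, fell with its share of WCGW members (-0.268), and followed the level of other intergenic CpGs in the bin (0.440).

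Most of the lowest bins lay on chromosome 7. Among the 1091 bins with 100 or more CpGs of both classes, chr7:38000001-39000000 was lowest, with 161 members mostly nearest to Gm5591, at 71.8%, 73.4%, 71.1% and 73.5%. The next were chr7:60000001-61000000, all of whose 215 members were nearest to the imprinted gene Snrpn (mean 73.6%), and chr7:33000001-34000000 beside the secretoglobin genes Scgb2b21 and Scgb2b24 (74.4%). They were followed by chr7:15000001-16000000 by the oocyte homeobox genes Obox2 and Obox7 (75.4%) and chr7:59000001-60000000 by Ube3a, an imprinted ubiquitin ligase gene (75.997%). The 5 lowest thus all came from chromosome 7. In the Ube3a bin the deepest member had up to 458 reads in a file, while the bin had 2908 to 3291 reads per file. A single site can therefore weigh on its level and rank, which were not taken without that member. Counting intervals in the bins named here ran from 0.849 to 3.83 points to either side.

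The highest bins were chr15:9000001-10000000 by Spef2 and Prlr (mean 94.2%), chr16:76000001-77000000 by Nrip1, a nuclear receptor co-repressor gene (93.7%), and chr2:45000001-46000000, whose 193 members were all nearest to Zeb2, a zinc finger repressor gene (93.6%). WCGW members were 51.6% of the lowest bin and 49.1% of the highest. In all 8 bins the difference between B and T files was at most 3 points in either sex, and none passed the test described below.

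Isolated CpGs lay below other intergenic CpGs of the same bin in all 4 files in 955 of 1395 bins (68.5%) and above them in 223, with a median gap of -2.53 points. The largest gaps in either direction were positive and came from low levels of the other CpGs. In chr17:39000001-40000000 isolated CpGs had 78.7% to 80.4% and other CpGs 24.5% to 31.3%. In chr3:5000001-6000000 the ranges were 82.1% to 84.1% and 50.1% to 54.3%, in chr6:3000001-4000000 83.2% to 84.3% and 61.2% to 63.4%, in chr8:20000001-21000000 81.0% to 81.4% and 58.2% to 63.8%, and in chr13:83000001-84000000, by Mef2c, 87.1% to 89.2% and 74.8% to 76.1%. These are pooled reads, so a few very deep CpGs can set them, and the bin gaps are not given without such CpGs. Leaving out CpGs over 50 reads moved other CpGs in female B from 87.3% to 87.7% on all of chromosome 3. The same step moved them from 86.2% to 86.6% on chromosome 6 and from 86.6% to 86.7% on chromosome 8, and left 86.8% on chromosome 13. The most negative gaps lay on chromosome 7, at -12.5 points in chr7:38000001-39000000, -12.0 in chr7:33000001-34000000 and -10.8 in chr7:17000001-18000000, by the Ceacam5 and Psg29 genes.

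Across all members B and T cells hardly differed. The level was higher in B by 0.108 points in females (95% counting interval 0.0577 to 0.159) and by 0.181 points in males (0.131 to 0.231). An exact two-sided permutation test of 2 B against 2 T files gave p = 0.667, and no p below 0.333 can be reached with 4 files. With no other CpG within 500 bp (26638 members), B minus T was -0.0150 points, for which no interval was computed. There was no steady trend with distance to the nearest other CpG. B minus T was 0.150 points at 200 to 300 bp, 0.181 at 300 to 500 bp, -0.0199 at 500 to 1000 bp and 0.137 beyond. Left to 3 files, B minus T over all members ran from 0.00418 points without the male T file to 0.285 points without the female T file. Other intergenic CpGs were higher in B by 0.451 points in females and 0.155 in males, or by 0.257 and 0.100 without CpGs over 50 reads. Isolated less other, the difference of B minus T came to -0.342 points in females and to 0.0254 in males, of opposite sign, and its mean went from -0.158 to -0.0334 points without CpGs over 50 reads.

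By chromosome, B minus T at isolated CpGs was largest on chromosome 11 (0.392 points, 0.428 in females and 0.356 in males) and chromosome 4 (0.342, with 0.240 and 0.444). It was lowest on chromosomes 7 (-0.115) and 8 (-0.106). B was higher in both sexes on 12 chromosomes and lower in both on 2. In a quasi-binomial logistic fit with cell type and sex, 0 of 19 chromosomes passed for isolated CpGs at adjusted p under 0.05 with Benjamini-Hochberg adjustment, and 0 passed at unadjusted p under 0.05 (smallest adjusted p = 0.974 by this quasi-binomial model with limma). Without CpGs over 50 reads 0 passed as well (smallest adjusted p = 0.268, same model). Other intergenic CpGs, which hold more reads, passed on 1 chromosome in the first fit and on 11 in the second, and the dispersion that each fit shared over chromosomes was 49.4 and 9.65. Both classes were fitted with that 1 dispersion, so it need not be the spread of isolated CpGs. The result of 0 of 19 for isolated CpGs thus cannot show that no chromosome differed.

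Cell types differed in a few 1 Mb bins. A bin was called when the same kind of fit gave an adjusted p under 0.05 over the bins of both classes and the mean B minus T was 5 points or more. With 1 file per group there is 1 residual degree of freedom per bin, so the spread was shared over bins with limma. Of the 1395 bins of isolated CpGs 6 were called (0.430%), 2 higher and 4 lower in B. The background over all 3320 bins of both classes was 0.873% (0.361% higher and 0.512% lower in B). That background includes the isolated bins. The shares were not tested against each other, and bins of isolated CpGs hold fewer CpGs on the whole, since the band has 289766 isolated and 3464024 other CpGs. The balance of directions depended on bin size, with 13 bins called at 500 kb, 8 of them higher in B, and a threshold of 10 points left 1 bin, which was higher in B. At adjusted p under 0.05 with no minimum size, 52 of the 1395 isolated bins passed, 36 of them higher in B. The background was 503 of all 3320 bins (15.2%). Isolated bins thus passed less often, a comparison with no test of its own.

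The bin chr6:41000001-42000000 holds 52 annotated T cell receptor beta gene segments. Its 58 isolated CpGs had 80.3%, 72.7%, 84.6% and 70.9%. Both T files lay below both B files, by 7.65 points in females and 13.6 in males (adjusted p = 4.55e-05, quasi-binomial model with limma). Reads on these CpGs numbered 571 and 537 in the T files and 778 and 843 in the B files, although T files were deeper over all members. The other intergenic CpGs of this bin moved the same way and further, from 78.8% and 81.1% in B to 62.5% and 64.1% in T. V(D)J recombination cuts DNA out of this locus in T cells, and its part in the level was not tested.

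The bin chr16:19000001-20000000 holds 12 immunoglobulin lambda segments, with Olfr164, an olfactory receptor gene, and Hira, a histone chaperone gene, as the nearest protein-coding genes. Its 159 isolated CpGs had 72.5%, 81.3%, 73.6% and 81.7%. B minus T was -8.76 and -8.15 points (adjusted p = 8.44e-10, same model). The other intergenic CpGs of this bin had 87.5%, 87.96%, 86.9% and 87.4%, with no such drop in B.

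The bin chr17:52000001-53000000 lies by Satb1, a chromatin organiser of T cell development, and Kcnh8, a potassium channel gene. Its 265 isolated CpGs had 91.8% in both B files and 86.1% and 86.3% in the female and male T files (adjusted p = 4.00e-13, same model). Here the other intergenic CpGs moved the same way and further, from 91.5% and 90.8% in B to 81.2% and 80.8% in T.

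The bin chr12:107000001-108000000 has 3110018I06Rik and Bcl11b, which encodes a T lineage commitment factor, as its nearest genes. Its 168 isolated CpGs had 82.5%, 89.2%, 82.00% and 89.1%, so that B minus T was -6.63 and -7.11 points (adjusted p = 5.98e-12, same model). Its 7677 other intergenic CpGs went the other way by a small amount, at 85.05% and 85.13% in B and 83.97% and 84.04% in T. The remaining called bins lay on chromosome 15. In chr15:94000001-95000000, by the protease gene Adamts20, 55 members had 86.8%, 92.8%, 85.9% and 91.6%. In chr15:36000001-37000000, by Rnf19a and Ywhaz, 68 members had 82.7%, 88.8%, 83.7% and 88.4%. Both were lower in B in both sexes, with B minus T of -6.01 and -5.65 points and of -6.14 and -4.71 points.

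**Figure D4:**
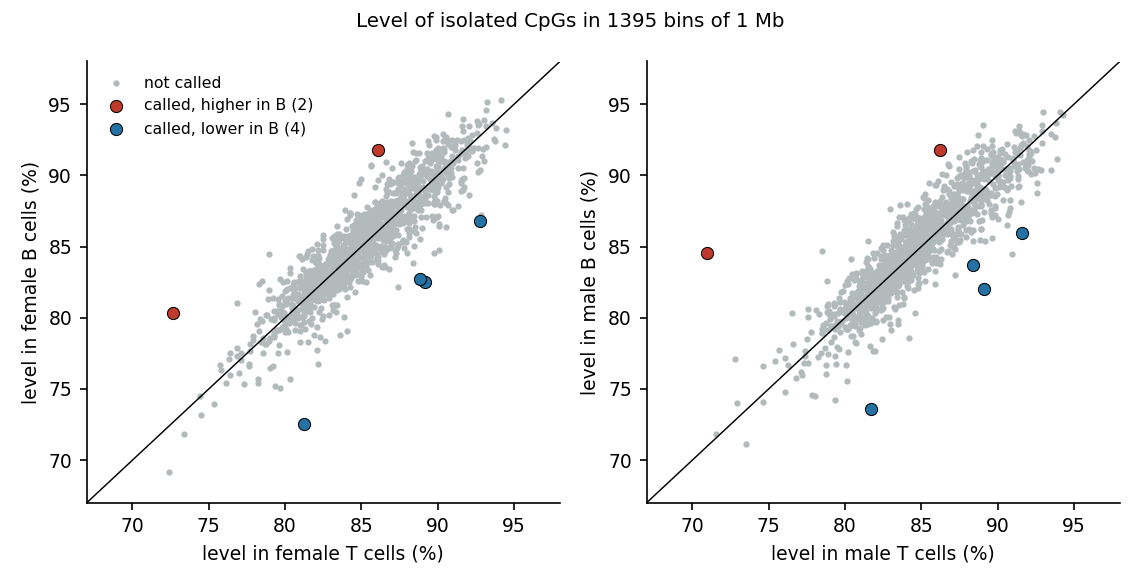
Methylation level of isolated CpGs in B cells against T cells (percent) in 1395 bins of 1 Mb, females on the left and males on the right; the line marks equal levels. The 2 called bins higher in B and the 4 called bins lower in B stand off the diagonal in both sexes, while the others follow it.

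The scatter of bins shows how closely the rest followed the diagonal, with an SD of 1.27 points for B minus T. Both sexes had B higher in 481 bins and B lower in 347, and in 567 the sexes went opposite ways. Leaving out bins with receptor segments left 4 called bins. Whether B minus T differed between isolated and other CpGs of the same bin was tested directly with an interaction term. Of all 1395 bins tested 2 were called at 5 points or more (0.143%), and 97 had an unadjusted p under 0.05. They were chr12:107000001-108000000 (a difference of -7.96 points, adjusted p = 2.63e-06) and chr16:19000001-20000000 (-7.96 points, adjusted p = 0.000802, quasi-binomial interaction with limma). For the Satb1 bin the difference was -4.54 points (adjusted p = 0.0520), which did not pass.

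Single members were tested in a logistic model with cell type and sex over all autosomal CpGs, and called at adjusted p under 0.05 with a mean difference of 20 points or more and the same sign in both sexes. Of 289766 members 1194 were called (0.412%), 652 higher and 542 lower in B. When Fisher's exact test was required in each sex instead, 226 were called, 124 of them higher in B. The background over all autosomal CpGs was 1.64% (0.906% higher and 0.731% lower in B). The share among other intergenic CpGs was 0.937%. The share of isolated CpGs was the lowest of these, a comparison with no test of its own. The p-values were adjusted over all autosomal CpGs together. In a class with a smaller share of calls, the share of false calls can therefore be above 0.05. At 10 to 20 reads in every file, a window that makes the depth of the groups more alike, the shares were 0.419% of isolated, 0.802% of other intergenic and 1.46% of all CpGs.

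A call needed a large difference, so the levels of called members are a description. Those higher in B had median levels of 90.5%, 21.2%, 91.7% and 22.2%. Those lower in B had 24.3%, 90%, 21.6% and 90.9%. On the low side the upper quartiles were 43.9% and 44.4% in T for the first set and 50% and 47.3% in B for the second. By context, 0.437% of WCGW, 0.402% of SCGW and 0.374% of SCGS members were called, beside 1.65%, 1.73% and 1.44% of all autosomal CpGs in the same contexts. Of members called higher in B 16.7% were soft-masked and 25.6% lay inside an annotated gene that is not protein-coding, against 26.7% and 12.2% of all members. For members lower in B these shares were 23.8% and 23.6%.

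The most extreme CpGs were near full methylation in one cell type and near none in the other. The CpG at chr3:143936602, 251928 bp from Lmo4 (a LIM-domain transcription co-regulator gene), had 100% in both B files and 0% in both T files, over 12 to 16 reads (adjusted p = 1.50e-12, as for all CpGs below from the common-dispersion logistic model). The CpG at chr4:7441171, 449614 bp from Tox (an HMG-box factor gene of T cell development), also had 100% and 0%, over 13 to 19 reads, and a second at chr4:7451217 had 100% in both B files, 10% in female T and 0% in male T. A pair near Sp4, a zinc finger factor gene, lay about 3 kb apart at chr12:118373097 and chr12:118376184, with B at 93.3% to 100% and T at 0% to 4.76%.

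Other sites shared this pattern. The CpG at chr15:60180066 by 4933412E24Rik had 92.3% in female B, 100% in male B and 0% in both T files. The CpG at chr15:63466909 by Gsdmc, a gasdermin gene, had 95.8% and 92.3% in B and 0% in T over 14 and 29 reads. The CpG at chr3:115805784 by Dph5, a diphthamide synthesis gene, had 100% in B and 7.14% and 8.33% in T. In all 8 the B and T files did not overlap, which follows from the choice of sites by the size of the difference.

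In the other direction, the CpG at chr12:16434843 by Lpin1, a phosphatidate phosphatase gene, had 0% in both B files and 95.7% and 95% in T. The CpGs by Nfe2l3 (chr6:51151349) and Ptpn1 (chr2:167854329), genes of a basic leucine zipper factor and a tyrosine phosphatase, had 0% in B and 94.7% to 100% in T. The CpG at chr13:51940992, 92524 bp from the stress-response gene Gadd45g, had 0% in B and 91.3% and 95.8% in T. A site by Zfp438 had 0% and 6.25% in B and 100% and 93.3% in T.

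Sites by 3 regulators of the B lineage and of growth belonged to this set. The CpG at chr11:45116738, 108647 bp from Ebf1 (early B cell factor), had 0% in both B files and 90% and 95% in T. The CpG at chr13:83085036, 418998 bp from Mef2c (a transcription factor gene used in B cells), had 0% and 6.25% in B and 93.3% in both T files. The CpG at chr15:61915752, 69639 bp from Myc, had 0% and 4.55% in B and 91.3% and 95.7% in T. Another 6 members nearest to Myc were called in the opposite direction, higher in B. These 16 sites had 10 to 29 reads per file, so a level of 0% allows a true level of up to 10.3% to 30% (3 reads of the total), and a level of 90% or more had a Wilson lower bound down to 59.6%.

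Whether a lone CpG changed alone was read from the CpGs 201 to 1000 bp away, with 40 or more reads in all. Of 649 higher-in-B members with such neighbours, 358 (55.2%) had a neighbour B minus T within 5 points of 0, and 89 had one of 20 points or more in the same direction. The median was 2.34 points, beside a median of 56.7 points for the members themselves. Of 537 lower-in-B members 302 (56.2%) had neighbours within 5 points and 72 had neighbours at 20 points or more, with a median of -2.27 points. The neighbours differed in the same direction as the member, by any amount, at 435 of the 649 and 358 of the 537. A member called in error would also have neighbours with little difference.

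**Figure D5:**
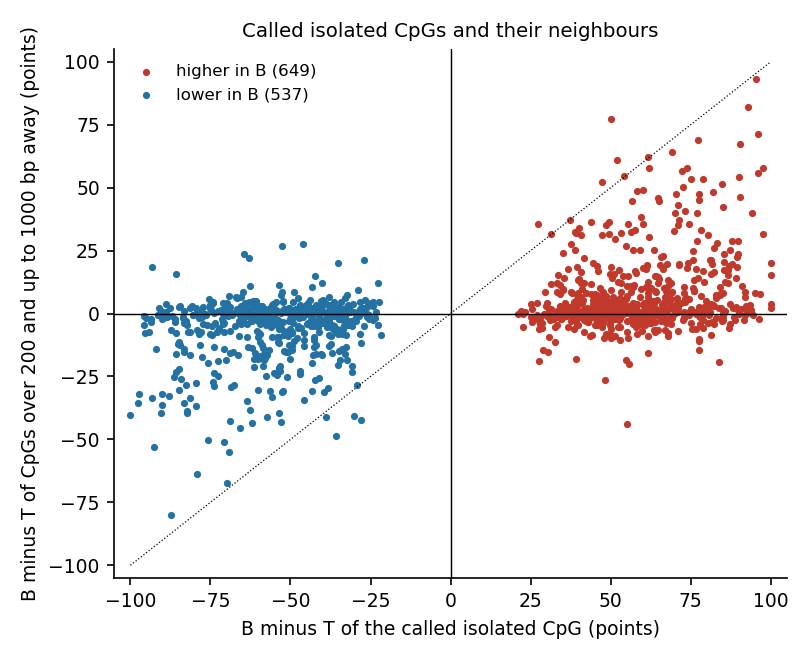
B minus T (percentage points, mean of both sexes) at each called isolated CpG against that of the CpGs 201 to 1000 bp from it; the dotted line marks equal values. Of 649 members higher in B 358 have neighbours within 5 points of 0, and of 537 lower in B 302 do.

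Both kinds occurred among the named sites. At the Lmo4 site the neighbours had 99.1%, 97.5%, 97.3% and 94.4%, and at the Gadd45g site 93.9%, 96.5%, 92.9% and 96.7%. The Myc site had neighbours at 96.6%, 94.3%, 98.4% and 96%. In these 3 the change was seen at the lone CpG and not in its flanks. At the 4933412E24Rik site the neighbours had 93.5%, 18.3%, 92.4% and 25%, at the Ebf1 site 48%, 91.7%, 36.1% and 98.5%, and at the Nfe2l3 site 55.97%, 91.9%, 56.8% and 91.8%, so these lie in wider stretches that differ between the cell types.

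The windows around called members held some lymphoid motifs at other rates than all members did. Windows of 202 bases centred on the CpG were searched on both strands, and one window may hold several motifs. The RUNX core TGTGGT was in 13.2% of all member windows, 31.1% of those higher in B (203 of 652) and 14.4% of those lower in B. The TCF1 and LEF1 core CTTTGA was in 17.4%, 31.3% and 23.4%, and the GATA motif AGATAA in 14.98%, 19.5% and 15.1%, in the same order. For the EBF motif, TCCC and GGGA with any 2 bases between them, the shares were 0.229%, 0 of 652 (which allows up to 0.460%) and 3.14% (17 of 542). The octamer ATTTGCAT, bound by POU factors, was in 2.13%, 1.69% and 5.54%. The ETS motif CAGGAA was in 19.5%, 32.5% and 29.9%, and the E boxes CAGCTG and CAGGTG in 6.21%, 9.66% and 12.5% and in 9.91%, 16.7% and 14.9%. These shares describe letters in the windows and say nothing about binding.

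Members were then grouped by nearest gene for a list of 22 B lineage and a list of 24 T lineage genes. Many of these genes lie in gene-dense DNA, and only 12 of each list were the nearest gene of any member. Of 1114 members by B lineage genes 3 were called higher and 12 lower in B (1.35%). Of 1314 by T lineage genes 35 were called higher and 7 lower in B (3.20%). Over all members the share was 0.412%. Called sites by T lineage genes were mostly lower in T and those by B lineage genes mostly lower in B, counts with no test and small for the B list.

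By gene, the 4 B lineage loci with the most members were Mef2c (338 members, 0 higher and 5 lower in B), Bcl11a (228, 1 and 1), Zeb2 (193, 1 and 1) and Ebf1 (168, 0 and 3). The 4 T lineage loci were Tox (264, 2 and 0), Satb1 (212, 12 and 1), Ets1 (204, 4 and 0) and Gata3 (170, 12 and 3), where Gata3 encodes the GATA factor of helper T cells and Ets1 an ETS factor. Of loci with 100 or more members, B had the higher pooled level in both sexes at 3 of 4 B lineage loci and 4 of 6 T lineage loci, and the lower level in both sexes at none. At Gata3 B was higher by 0.00951 points in females and 1.46 in males, and the difference changed sign between the sexes at Mef2c, Prkcq and Rora. At Satb1 the level was 93.5%, 90.5%, 94.2% and 90.3%, and at Tox 94.8%, 92.8%, 93.8% and 92.3%. Bcl11a, whose product acts early in the B lineage, was also higher in B, at 91.6%, 88.6%, 92.1% and 88.6%. Of the 6 T lineage loci with fewer members, Cd28, Lef1 and Inpp4b were higher in B in both sexes and Icos and Bcl11b lower. Of the 8 such B lineage loci, Bach2 and Arid5b were higher in both and Foxp1 lower, and the rest differed in sign. Counting intervals at the 4 largest loci of each list reached 1.51 points to either side.

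Called members were spread over many loci. Those higher in B had 411 different nearest genes, and 116 of 652 had another within 10000 bp. The genes with the most, named after their values were seen, were 4933412E24Rik (14), Gata3 (12), Satb1 (12), Oxsm (10) and Kcnh8 (9). Those lower in B had 387 nearest genes, led by 3110018I06Rik (9), Hira (9), Marcks (8), Inhba (7) and Olfr164 (7), of which 3110018I06Rik, Hira and Olfr164 belong to the called bins described above.

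Sex differences were smaller than differences between bins or contexts. The level of isolated CpGs was higher in females, by 0.208 points for B and by 0.281 points for T, and the exact permutation test of 2 against 2 files gave its smallest possible p, 0.333. No bin of isolated CpGs was called for sex (0 of 1395, against a background of 0% of 3320 bins), with 14 at an unadjusted p under 0.05 in the quasi-binomial fit with limma and 162 when limma was run on the percent levels. No member was called (0 of 289766, against a background of 7.69e-05%), with 4.96% of members at an unadjusted p under 0.05, beside 4.32% of all autosomal and 4.76% of other intergenic CpGs.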

How the data were processed

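WGBS of 8 samples was used as 4 deposited tables, 1 for each group. Per the labels and the submitters' processing notes, the authors trimmed reads with Trim Galore, checked them with FastQC, and aligned and called them with Bismark 0.13.1 on mm10; a portion of each sample was oxidized, and the tables used here hold the plain bisulfite part. Each deposited row gives a CpG's position, its methylation level as a fraction, rounded to 3 decimals by the authors, and its read count, 5 or more. Positions counted from 0 and were raised by 1, after which every row fell on a CpG of GRCm38.p6. Methylated reads are fraction times count, rounded. Files held 278275973 to 339923001 autosomal reads, 14.6 to 17.7 per CpG, which limits the precision of single CpGs. Replicates within a group could not be separated. For B against T, p-values rest on read counts, scaled by 1 dispersion between the 4 files that all CpGs, all bins or all chromosomes shared. That dispersion may be technical. These p-values do not measure the spread between files at a given CpG or bin.

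Levels are pooled reads. Single CpGs were tested by the likelihood ratio of cell type in a logistic model with sex, divided by 1 common dispersion (1.16, from 311521 CpGs), and bins and chromosomes by a quasi-binomial fit with limma 3.58.1 (R 4.3.3), all with Benjamini-Hochberg adjustment. Both were also run on simulated data, with outcomes not given here. Bins of 1 Mb needed 50 CpGs of a class. Chromosomes were named as the 2 highest and 2 lowest by level and by B minus T, bins as the 5 lowest, 3 highest, 5 with the largest gap and those called (also those under 100 CpGs, and the 3 most negative gaps, which were added), CpGs as the 8 in each direction with the largest smaller-sex difference at 10 or more reads, and loci as the 4 with the most members. The members, gene lists and motifs were chosen with earlier results of these data known. One of the marker promoters checked is not reported here. Alternatives are given in the closing section.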

Additional observations from a re-analysis of the deposited data

Results flagged for a closer look

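Several values had opposite signs in females and males. The difference itself was not tested in any of them, since each group had 1 file. For B minus T at isolated CpGs less B minus T at other intergenic CpGs, females had -0.342 points, males 0.0254 points. In chr7:60000001-61000000, by Snrpn, B minus T at isolated CpGs was -1.32 points in females and 1.11 in males, and in chr7:15000001-16000000, by Obox2, it was -1.43 and 1.56. In chr7:33000001-34000000 it was 0.0798 and -0.522, in chr15:9000001-10000000 it was 1.91 and -0.0742, and in chr6:3000001-4000000 it was 0.017 and -1.08. In chr13:83000001-84000000 it was -0.259 and 2.09, and over the members nearest to Mef2c, which make up most of that bin, -0.479 and 2.19. Of all 1395 bins, 567 had opposite signs in the sexes.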

How the results depend on the processing

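Depth limits the precision of single CpGs. No paired analysis was possible because the groups share no replicate numbers and each group has 1 file; for the same reason no replicate within a group could be left out, and single files were left out of the overall values instead. Bin tests have no residual degree of freedom without a file, and single CpGs were not tested without one. The level of isolated CpGs was 84.6% with 10 reads in every file and 83.8% with 500 bp of isolation. The gap to other intergenic CpGs was -0.645 points with 10 reads, -1.89 with 500 bp, -1.98 outside every annotated gene, -1.80 without CpGs over 50 reads and -1.94 with each CpG counted once. B minus T changed sign to -0.0150 points with 500 bp of isolation (26638 members), with no interval computed, and the cause was not tested. Over the fits that left out 1 file it ran from 0.00418 to 0.285 points, female minus male from 0.154 to 0.335, and the difference of B minus T between classes from -0.261 to -0.0556. That difference was -0.158 with all CpGs, -0.0334 without CpGs over 50 reads, -0.0273 outside every annotated gene and -0.00198 as a mean over CpGs, all changes within its SD between the sexes (0.260). The WCGW minus SCGS difference was -12.1 with 10 reads, -13.0 with 500 bp, -11.9 outside every gene and -11.7 as a mean over CpGs. Called isolated bins numbered 1 at a threshold of 10 points and 13 in 500 kb bins, and 4 to 6 in the others. Bins called for the interaction numbered 0 at 10 points, 5 with limma on percent levels and 4 with 10 reads, 2 of these higher, against 2 or 3 otherwise. Called members numbered 226 with Fisher's exact test required in each sex. The called share of isolated less that of other CpGs was -0.525 percentage points, and -0.383 at 10 to 20 reads, chosen after seeing the data, as were the bins and chromosomes without CpGs over 50 reads and the bins without receptor segments. In all, 50 values under alternatives, including those above that moved within their spread, kept their direction and size class.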
